A study of Procambarus clarkii with 12 samples.

Results

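The comparison of the high with the middle cadmium dose covers 6 of the 12 RNA-seq libraries of the series: 3 from male red swamp crayfish (*Procambarus clarkii*) held in 10 mg/L cadmium and 3 from males held in 5 mg/L. The libraries were chosen by their titles. The tissue of every library is the hepatopancreas and the exposure lasted 72 h. The 3 unexposed control libraries are used to say which dose lies away from the unexposed level, and 3 libraries of animals in 2 mg/L add to the estimate of spread. Whether 1 animal or a pool went into each library is not in the labels, nor are age and strain. The p-values therefore cover the spread among these libraries, which may be partly technical.

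The hepatopancreas is the digestive gland of crustaceans. It secretes digestive enzymes, takes up nutrients, stores lipid and is the main organ in which cadmium and other metals are bound and detoxified. Cadmium is a metal with no known role in crustaceans. In cells it binds thiol groups, displaces zinc and other metals from proteins, and provokes oxidative stress, against which metallothioneins, glutathione and chaperones are known defences. The deposited tables list 176325 transcript clusters by number and pair none with a gene name, and 0 of these identifiers occur in RefSeq's list of genes for this species (assembly FALCON_Pclarkii_2.0). The clusters are therefore described by level, length and pattern, and 4 of them by identifier. Which of them encode the defence genes is not known here, and markers of the hepatopancreas or of other cells could not be checked.

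Levels are CPM, a count as a share of its library's total count on a fixed common scale, adjusted between libraries by TMM, a method that assumes that most clusters do not change. The libraries held 16083737 to 16880820 estimated counts at 10 mg/L and 19010972 to 21653612 at 5 mg/L, so every library of the high dose was shallower, and depth and dose cannot be told apart except by thinning. Clusters with at least 1 count numbered 97570, 102145 and 84435 in the 10 mg/L replicates 1 to 3, against 105151, 105509 and 101491 in the 5 mg/L replicates. After thinning to one total of 15835655 counts they numbered 97353, 101698 and 83538 at 10 mg/L, against 100464, 100580 and 98472 at 5 mg/L. The groups overlapped before and after thinning, and no difference was shown (exact permutation test, two-sided, p = 0.2 before and 0.5 after thinning, where the smallest possible p is 0.1).

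One library of the high dose stood apart from the other two. The 10 mg/L replicates 1 and 2 correlated with each other at 0.625 (Spearman, log2 CPM, 57151 tested clusters), and replicate 3 correlated with them at 0.523 and 0.551. Replicate 3 correlated with the 5 mg/L libraries at 0.596, 0.553 and 0.574, closer in each case than to its own dose. Its mean correlation with the controls was 0.576, while those of replicates 1 and 2 were 0.512 and 0.516. The 5 mg/L libraries had mean correlations with the controls of 0.603, 0.566 and 0.579. The 10 mg/L libraries thus averaged 0.535 ± 0.036 and the 5 mg/L libraries 0.583 ± 0.019 (SD, n = 3 each), a difference of -0.048 that the exact permutation test did not separate (two-sided p = 0.2). Without 10 mg/L replicate 3 the difference was -0.0687, with the smallest p that 2 libraries against 3 can give in the exact permutation test (p = 0.1). Replicate 3 was singled out by these same correlations, so that p is a description only. Results that rest on that library are given with and without it.

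**Figure D1:**
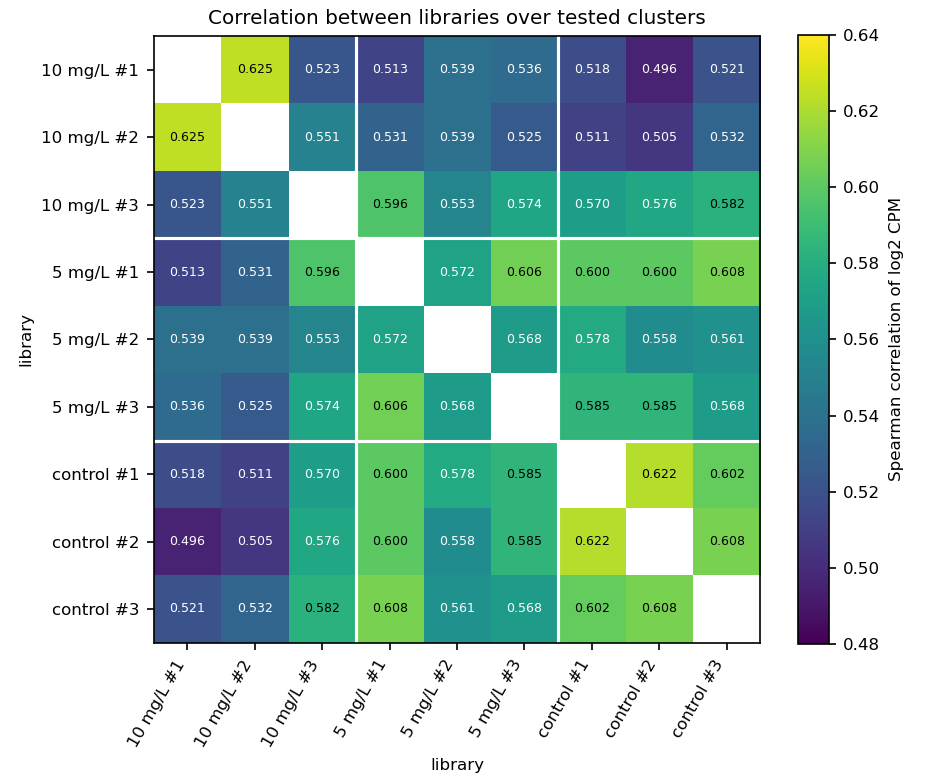
Spearman correlation of log2 CPM between each pair of the 9 libraries of 10 mg/L, 5 mg/L and controls, over the 57151 tested clusters; each cell is 1 pair and the white lines part the groups. The 10 mg/L replicates 1 and 2 have 0.625 with each other and at most 0.551 with any other library, while replicate 3 has up to 0.596 with a 5 mg/L library.

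Between 10 and 5 mg/L, 6 clusters of 57151 were called, 2 higher and 4 lower at 10 mg/L (edgeR quasi-likelihood test, Benjamini-Hochberg adjusted p under 0.05), which is 0.0105% of those tested (0.0035% higher and 0.007% lower). In 5 of the 6, one dose had no count in any library. In 2 of the 6 only the 5 mg/L libraries lay apart from all controls, in 3 only the 10 mg/L libraries did, and in 1 both doses did, on opposite sides.

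Cluster-27942.52617, with a length of about 1117 bases implied by its counts and FPKM, was missing at 5 mg/L. It had 6.97, 5.96 and 5.18 CPM at 10 mg/L, 0 in all 3 libraries at 5 mg/L, and 3.22, 3.45 and 3.72 CPM in the controls. The 10 mg/L libraries all lay above the controls, and the 5 mg/L libraries below everything else. It was at least 126-fold higher at 10 than at 5 mg/L against a floor of 3 counts over the 5 mg/L group, a floor that covers counting error only (edgeR adjusted p = 0.0227). Against the controls, 5 mg/L was at least 67.3-fold lower (edgeR adjusted p = 0.0510), while 10 mg/L against the controls gave a log2 fold change of 0.80 ± 0.44 (SE; adjusted p = 0.52, edgeR).

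Cluster-27942.52098, about 1197 bases long, was also missing at 5 mg/L. It had 4.37, 1.69 and 3.04 CPM at 10 mg/L, 0 in all 3 libraries at 5 mg/L, and 6.74, 7.29 and 3.55 CPM in the controls. It was at least 62.4-fold higher at 10 than at 5 mg/L (edgeR adjusted p = 0.0304). Its 10 mg/L and control libraries overlapped, and 5 mg/L was at least 116-fold lower than the controls (edgeR adjusted p = 0.0510).

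Cluster-27942.63967 was the one called cluster with counts in every library. It had 2.88, 3.49 and 2.30 CPM at 10 mg/L, 76.9, 47.9 and 46.9 CPM at 5 mg/L, and 4.0, 3.05 and 3.10 CPM in the controls. Levels at 10 mg/L and in the controls overlapped, and the 5 mg/L libraries stood more than 10-fold above both. The log2 fold change of 10 against 5 mg/L was -4.30 ± 0.45 (SE; adjusted p = 0.0303, edgeR), and that of 5 mg/L against the controls 4.08 ± 0.45 (SE; adjusted p = 0.0559, edgeR). Its implied length, 113 bases, is an effective length and may be far below that of the transcript.

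Cluster-27942.86978, with an implied length of 10099 bases, was missing at 10 mg/L. It had 0 counts in all 3 libraries at 10 mg/L, 24.1, 31.5 and 53.9 CPM at 5 mg/L, and 31.1, 34.7 and 18.7 CPM in the controls. The 5 mg/L and control libraries overlapped. It was at least 599.8-fold lower at 10 than at 5 mg/L (edgeR adjusted p = 0.0303) and at least 446-fold lower than in the controls (edgeR adjusted p = 0.0376), against a floor of 3 counts over the 10 mg/L group.

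A further pair of called clusters, lettered A and B in the plot of called clusters, was missing at 10 mg/L in the same way. Cluster A, about 6942 bases long, had 0 counts in the 3 libraries at 10 mg/L, against 23.3, 11.8 and 31.2 CPM at 5 mg/L and 9.60, 18.0 and 7.32 CPM in the controls (edgeR adjusted p = 0.0227 for 10 against 5 mg/L). Cluster B, about 3048 bases long, had 0 counts at 10 mg/L, against 13.9, 7.70 and 5.86 CPM at 5 mg/L and 5.61, 6.55 and 11.7 CPM in the controls (edgeR adjusted p = 0.0236). For both, the 5 mg/L and control libraries overlapped, and 10 mg/L was called against the controls (edgeR adjusted p = 0.0265 for each).

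**Figure D2:**
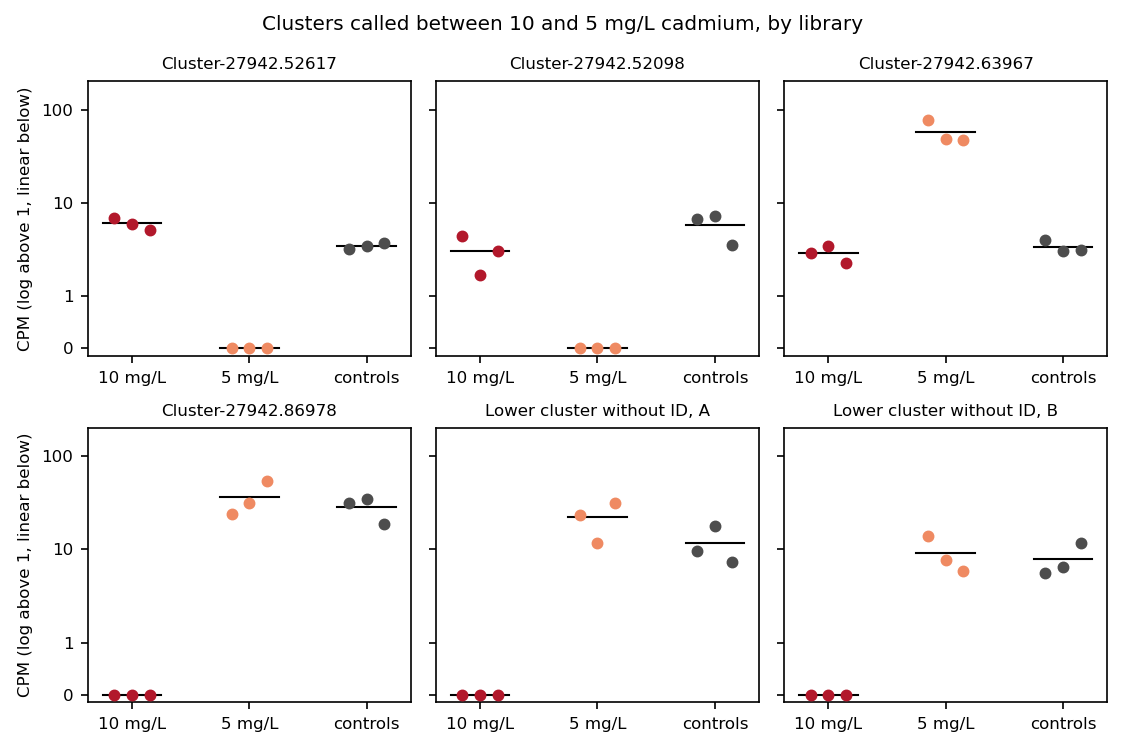
Level in CPM of the 6 clusters called between the doses, 1 point per library with the group mean as a bar, on an axis that is logarithmic above 1 and linear below. In 2 clusters the 5 mg/L libraries are at 0, in 1 they reach 46.9 to 76.9 CPM, and in 3 the 10 mg/L libraries are at 0. The remaining dose overlaps the controls in 5 clusters, and in Cluster-27942.52617 the 10 mg/L libraries lie above them.

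Against the controls the same fit called 4 clusters at 10 mg/L, 0.007% of those tested, and 0 at 5 mg/L (edgeR, 0.0%). Both comparisons use the same controls. With an unadjusted p under 0.05 there were 6487 clusters at 10 mg/L (11.4%), 3149 at 5 mg/L (5.51%) and 4751 between the doses (8.31%, with 2108 or 3.69% higher at 10 mg/L and 2643 or 4.62% lower). DESeq2, which tested more clusters, called 2760 of 72612 at 10 mg/L and 840 of 66318 at 5 mg/L. Between the doses it called 1640 of 69452, all 6 of the edgeR calls among them. The edgeR count rested on single libraries and on the 2 mg/L libraries in the fit. It was 0 in a fit of the 9 libraries without 2 mg/L and 0 in a fit of the 6 libraries compared, which had 3869 and 2088 clusters with an unadjusted p under 0.05 (edgeR). It was 199 without 10 mg/L replicate 3, 10 without 2 mg/L replicate 1, 7 without 10 mg/L replicate 2 and 5 without 5 mg/L replicate 3. Leaving out 5 mg/L replicate 2 gave 3. The count was 1 with either 10 mg/L replicate 1 or 2 mg/L replicate 3 left out, and 0 once 5 mg/L replicate 1, 2 mg/L replicate 2 or any 1 control was dropped. The 4 named clusters kept their direction in all 12 of these fits, which their lack of overlap between the doses fixed in advance. Cluster-27942.52617 remained called in 5 of them, Cluster-27942.86978 in 3, and Cluster-27942.52098 and Cluster-27942.63967 in 2 each.

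Other clusters, some with far larger levels, differed between the doses without passing the test. A gap rule set after the values were seen asked that the lowest library of one dose have at least 10 CPM and at least 10 times the highest library of the other. Of the 57151 tested clusters, it was met by 12 higher at 10 mg/L and 17 lower, of which 3 were called, all lower. The controls did not lie low in any of the 12 higher clusters. In 3 of these every control was at least 10-fold above the 5 mg/L libraries, and in 9 the controls were spread. The most abundant of the 12, about 1252 bases long, had 621, 319 and 256 CPM at 10 mg/L, 0 in all libraries at 5 mg/L, and 257, 299.6 and 210.4 CPM in the controls. It was thus absent from the middle dose alone of the 3 groups, yet its edgeR adjusted p was 0.507, with 206, 0 and 0 CPM in the 2 mg/L libraries that share the estimate of spread.

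Among the 17 lower clusters, 9 were high at 5 mg/L and low in both other groups, with every control at least 10-fold below the lowest 5 mg/L library. In 2, both of them called, the controls were high like 5 mg/L, and in 6 they were spread. The most abundant of the 9 ranked 108th of all tested clusters and had an implied length of 3319 bases. It had 2.05, 2.14 and 7.85 CPM at 10 mg/L, 4142, 3673 and 1868 CPM at 5 mg/L, and 2.87, 1.64 and 8.11 CPM in the controls. Controls and 10 mg/L overlapped here too, and the 5 mg/L libraries were more than 100-fold above both. The 2 mg/L libraries, which take no part in this comparison beyond the spread, had 1.80, 3926 and 2132 CPM, so high levels were not confined to the middle dose. Its log2 fold change of 10 against 5 mg/L was -9.65 (edgeR adjusted p = 0.426).

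The other 8 of these clusters, Cluster-27942.63967 among them, summed to 5.59, 6.19 and 5.63 CPM at 10 mg/L, to 1505, 847 and 764 CPM at 5 mg/L and to 5.96, 5.37 and 4.45 CPM in the controls. In all 9 the 5 mg/L replicate 1 had the highest level, 1.49 to 2.31 times the mean of replicates 2 and 3. Over the 12 libraries their levels, as log2(CPM + 0.1), correlated with each other at 0.858 to 0.996 (36 pairs, Pearson), which the gap rule favours since it fixes where they are high. The implied lengths ran from 27 to 3319 bases with a median of 77. Short clusters of this kind can share reads with a longer relative, and whether they are pieces of the same transcripts was not tested.

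**Figure D3:**
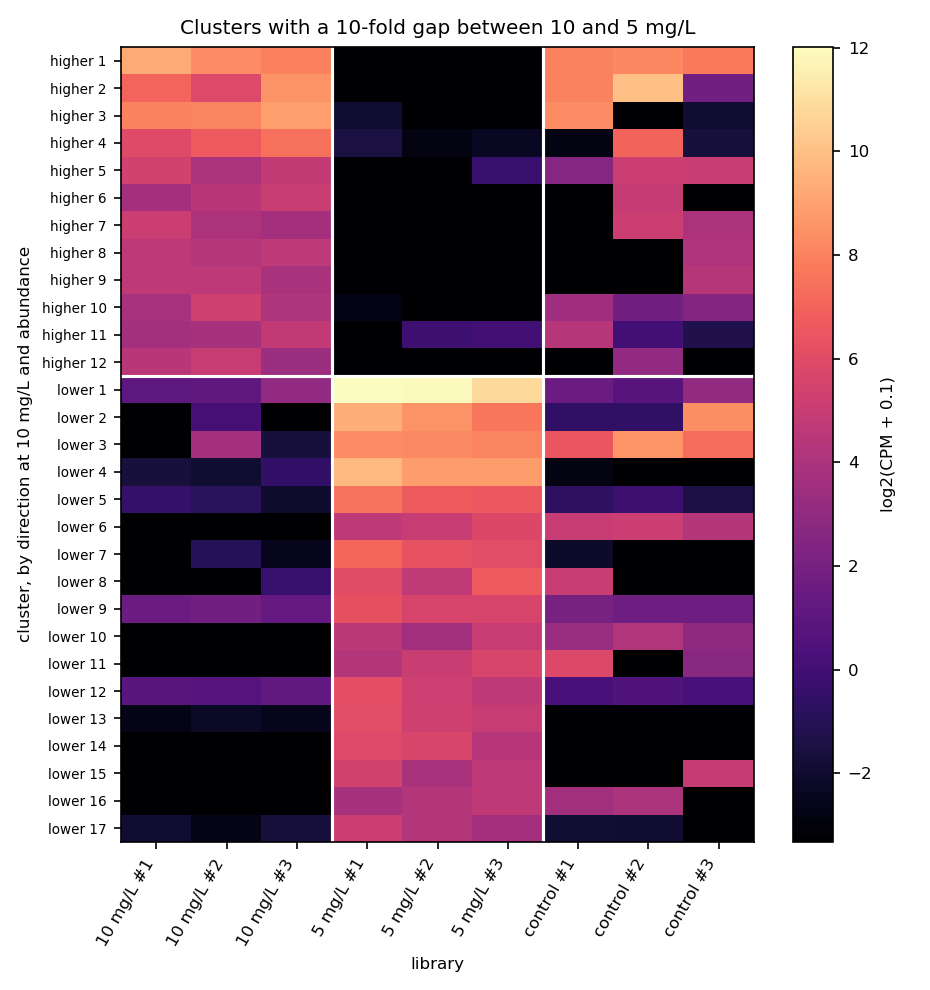
Level as log2(CPM + 0.1) of the 29 clusters with a 10-fold gap between the doses (rows, 12 higher and 17 lower at 10 mg/L, each set by falling abundance) in the 9 libraries of 10 mg/L, 5 mg/L and controls (columns). In 9 of the lower rows the 5 mg/L columns alone are bright, while in none of the higher rows are all 3 controls as dark as the 5 mg/L columns.

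Leaving out 10 mg/L replicate 3 changed this picture more than leaving out any other library of the 2 doses. Of the 57151 tested clusters, the gap rule was then met by 168 higher and 47 lower at 10 mg/L. In 120 of the 168 the controls were low like the 5 mg/L libraries. Without any 1 of the other 5 libraries there were 23 to 37 higher clusters, of which 0 to 3 had low controls. In the test, 199 clusters were called without replicate 3 (edgeR, 0.288% of 69180 tested), 123 higher and 76 lower at 10 mg/L, and they included the 6 called on all libraries.

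The values of the left-out library in those 199 clusters took no part in choosing them. Relative to the mean of the 5 mg/L libraries, the 123 higher clusters had a median log2 difference of 3.98 in 10 mg/L replicate 1, 3.98 in replicate 2 and -0.12 in replicate 3. The controls had medians of 0.02, -0.17 and 0.09 on the same scale. The 76 lower clusters had medians of -4.47, -4.48 and -0.78 in 10 mg/L replicates 1 to 3 and of -0.13, -0.14 and -0.27 in the controls. Replicate 3 was nearer to the other 10 mg/L libraries than to the 5 mg/L mean in 24 of the 199 clusters (12.1%). In 83 (41.7%) it lay beyond every 5 mg/L library in the direction of its dose. The control mean was nearer to 5 mg/L than to replicates 1 and 2 in 110 of the 123 higher and 73 of the 76 lower clusters. Over all tested clusters, with replicate 3 left out of the mean of its dose, the controls were nearer to 5 mg/L in 36418 of 57151 (63.7%).

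The most abundant of the 123, about 4129 bases long, had 13101, 10491 and 11.0 CPM in 10 mg/L replicates 1 to 3, against 2.16, 0.0891 and 2.07 CPM at 5 mg/L and at most 0.169 CPM in a control. The next had 4324, 3370.3 and 6.59 CPM at 10 mg/L, 15.7, 10.9 and 8.74 CPM at 5 mg/L and 8.04, 15.6 and 4.67 CPM in the controls. Replicates 1 and 2 held these transcripts at levels more than 100-fold above every other library of the 3 groups. With all libraries in the fit their edgeR adjusted p values were 0.357 and 0.431, and without replicate 3 they were 0.0304 and 0.0146. The most abundant of the 76 lower clusters had 5.59, 1.52 and 52.7 CPM at 10 mg/L, against 183, 144 and 105 CPM at 5 mg/L and 142, 283 and 102 CPM in the controls. In 54 of the 76 both replicates 1 and 2 had 0 counts, and in 10 replicate 3 had 0.

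The same reading was made for each of the 6 libraries, with clusters chosen at an unadjusted p under 0.01 in the fit without it. A position of 0 marks the mean of the other dose and 1 the mean of the rest of its own dose. Left-out 10 mg/L replicates 1 and 2 had median positions of 0.667 (876 clusters) and 0.790 (784 clusters), and replicate 3 had 0.081 (2717 clusters). The 5 mg/L replicates 1 to 3 had 0.780, 0.653 and 0.748 (767 to 892 clusters). Of the 6 libraries, 10 mg/L replicate 3 thus had the lowest median position. Its median was 0.0 in the 1373 higher and 0.285 in the 1344 lower of its clusters. In 41.4% of them it lay beyond every 5 mg/L library in the direction of its dose. The other left-out libraries lay beyond every library of the other dose in 67.5% to 74.6% of their clusters.

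**Figure D4:**
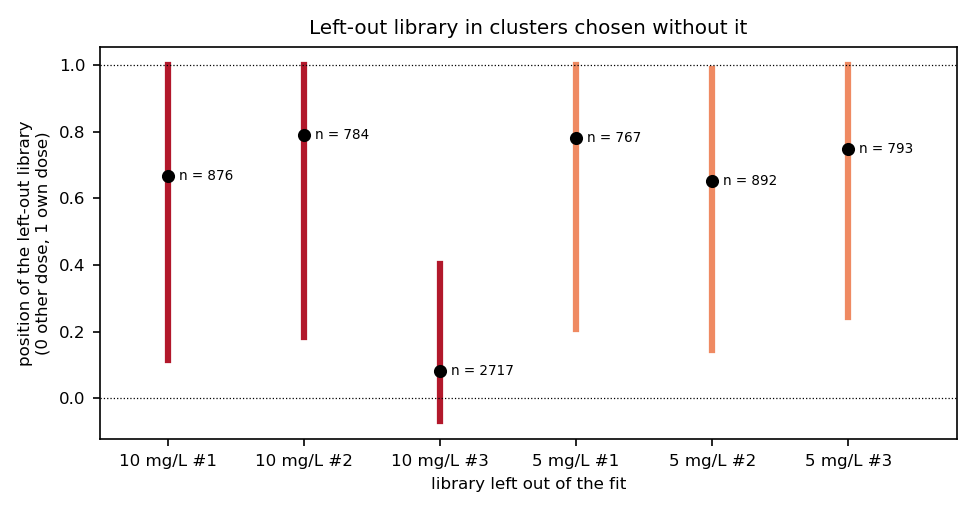
Position of each library between the mean of the other dose (0) and the mean of its own dose (1) in clusters chosen without it at an unadjusted p under 0.01; points are medians over n clusters and bars run from the lower to the upper quartile. Of the 6 libraries, 5 have medians from 0.653 to 0.790, and 10 mg/L replicate 3 has 0.081.

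Without a model, the 3 libraries of 10 mg/L lay above all 3 of 5 mg/L in 2533 clusters (4.43% of those tested) and below them in 4436 (7.76%). Scaling by library size alone gave 3.74% and 8.26%. Of the 20 splits of 6 libraries into 3 and 3, 1 puts a given dose wholly above the other. A share near 1 in 20 in each direction therefore arises without any difference between the doses. Without 10 mg/L replicate 3 the shares were 14.0% higher and 14.8% lower, as smaller groups overlap less by construction. The excess of lower over higher was then nearly gone. The order turned at 1 to 10 CPM (15.2% higher, 14.8% lower) and at 10 to 100 CPM (18.0% and 16.1%). With and without that library, the excess was widest in the most abundant transcripts (over 1000 CPM, 5.67% higher and 45.4% lower without it). Of the 141 clusters with a mean over 1000 CPM, 17 (12.1%) were lower at 10 mg/L in every library and 2 (1.42%) were higher, and by library size alone 26 and 4. The 17 had a median log2 fold change of -1.24 (10 against 5 mg/L), where all 141 had -0.18 and all tested clusters -0.02. They summed to 1.23%, 1.5% and 2.10% of scaled counts in the 10 mg/L libraries, against 4.86%, 3.32% and 4.21% in the 5 mg/L libraries and 3.61%, 4.23% and 5.04% in the controls. They were chosen for that gap between the doses, so their distance from the controls is a description only. Against the controls, all 17 had a lower mean at 10 mg/L and 11 at 5 mg/L, with median log2 fold changes of -1.33 and -0.06. Over all 141, which were not chosen for a gap, 89 had a lower mean at 10 mg/L and 75 at 5 mg/L, with medians of -0.23 and -0.06. None of the 141 was called between the doses (smallest edgeR adjusted p = 0.357).

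Over the whole class, the 10 mg/L libraries differed among themselves. In the 141 clusters over 1000 CPM the median log2 difference from the 5 mg/L mean was -0.77 for the mean of replicates 1 and 2. For replicate 3 it was 0.45 (library size alone, -0.61 and 0.12). The 1000 most abundant clusters of each library held 66.1%, 66.6% and 77.1% of counts in 10 mg/L replicates 1 to 3, against 74.1%, 71.8% and 71.9% at 5 mg/L and 70.6%, 75.9% and 74.2% in the controls. Replicates 1 and 2 lay below every other library and replicate 3 above every other. The mean cluster length weighted by counts was 2063, 1873 and 1500 bases at 10 mg/L, against 1572, 1676 and 1696 bases at 5 mg/L and 1712, 1590 and 1571 bases in the controls. Replicates 1 and 2 were again outside the range of all 5 mg/L and control libraries on one side, and replicate 3 on the other. Clusters over 4000 bases held 12.8%, 11.2% and 6.21% of the counts with a known length at 10 mg/L, against 7.43%, 7.86% and 8.60% at 5 mg/L and 8.23%, 7.45% and 7.08% in the controls. For the share of the 1000 most abundant clusters and the mean length, no difference between the doses was shown with all libraries (exact permutation p = 0.5 and 0.4). Without replicate 3 each gave p = 0.1 in the exact permutation test, the smallest possible. That library lay on the other side in both measures, so leaving it out fixed this p and it is a description only. The share of clusters over 4000 bases was not tested.

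**Figure D5:**
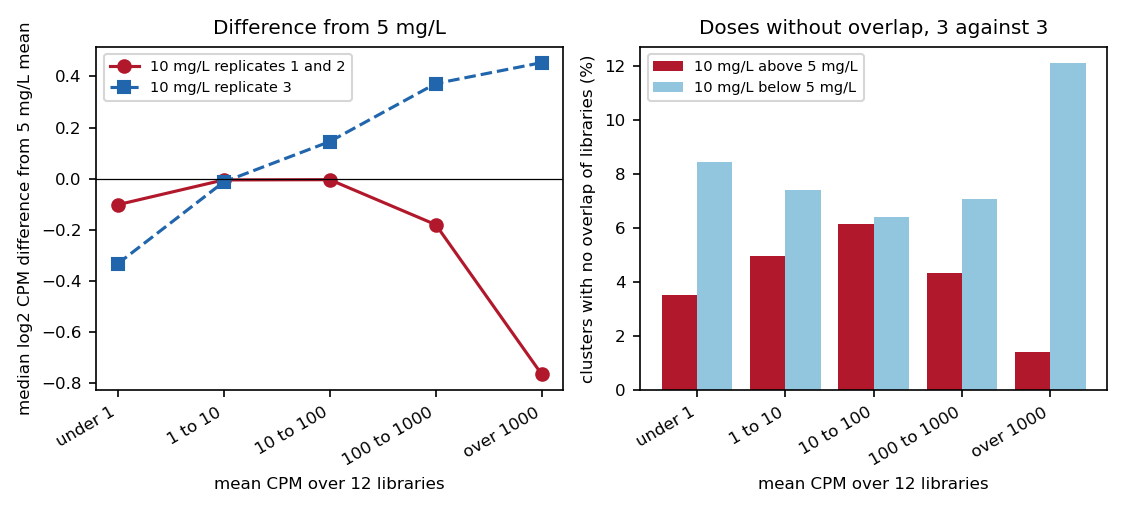
Left, median log2 CPM difference from the 5 mg/L mean by class of mean CPM, for the mean of 10 mg/L replicates 1 and 2 and for replicate 3; right, share of clusters in which all 3 libraries of 10 mg/L lie above or below all 3 of 5 mg/L, in percent. In the class over 1000 CPM the medians are -0.77 and 0.45 and the shares 1.42% higher and 12.1% lower; by library size alone the median of replicate 3 at 10 to 100 CPM turns from 0.145 to -0.178.

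The controls were used to place each dose in the clusters without overlap. Of the 2533 higher at 10 mg/L, 927 (36.6%) had only the 10 mg/L libraries apart from all controls, 392 (15.5%) only the 5 mg/L libraries, 41 both in opposite directions and 125 both on the same side. Of the 4436 lower at 10 mg/L, the numbers were 1592 (35.9%), 825 (18.6%), 105 and 201. In 1048 (41.4%) of the higher and 1713 (38.6%) of the lower clusters neither dose was apart from all controls. That was the largest class in either direction. Over all tested clusters 10 mg/L was apart from the controls in 16.8% and 5 mg/L in 12.3%, both against the same controls. The high dose was thus the one apart more often in either direction, as it was over all clusters. Without 10 mg/L replicate 3 the numbers were 4696 and 569 of 8018 higher and 4126 and 947 of 8453 lower clusters, and 2 libraries against 3 fail to overlap more often by construction. The median distance of the group mean from the control mean was 0.80 at 10 mg/L and 0.61 at 5 mg/L (log2 CPM, all tested clusters), and 0.96 at 10 mg/L without replicate 3.

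Complete absence was more frequent at the high dose. With at least 10 counts in each library of one dose and 0 in all 3 of the other, 286 clusters were absent at 10 mg/L and 120 at 5 mg/L (0.162% and 0.0681% of all listed). Thinning to one depth left 216 and 117. Of the 286, 72 had counts in all 3 controls, 177 in some and 37 in none. Of the 120, 28 had counts in all controls, 64 in some and 28 in none. In most of either set the cluster was therefore also missing from at least 1 control. Levels where present were mostly low, with a median of 1.82 CPM at 5 mg/L for the 286 and 2.78 CPM at 10 mg/L for the 120, and highest levels of 43.6 and 417 CPM. Without replicate 3 of the high dose the order turned, with 664 clusters absent at 10 mg/L and 900 at 5 mg/L, of which 443 had no count in any control.

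Levels of single clusters varied more between the 10 mg/L libraries. The median SD of log2 CPM was 0.95 at 10 mg/L, 0.81 at 5 mg/L and 0.73 in the controls, over tested clusters and 3 libraries each. The SD was larger at 10 than at 5 mg/L in 31958 of 57151 clusters, and in 113 of the 141 over 1000 CPM. By pairs of libraries, the median absolute log2 difference was 0.775 between 10 mg/L replicates 1 and 2, and 1.11 and 1.02 between each of them and replicate 3. The 5 mg/L pairs had 0.754 to 0.889. The pair of 10 mg/L libraries without replicate 3 was therefore within the range of the 5 mg/L pairs.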

How the data were processed

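The authors deposited, per the file headers, an estimated count per transcript cluster for each library and an FPKM value. No assembler, aligner, counting tool or build is named (not given in the sources used here). Of nonzero estimated counts 58.0% were whole. They were rounded, and edgeR 4.0.16 (R 4.3.3) was used with filterByExpr (minimum count 10, total 15; 57151 clusters with 98.6% of counts), TMM and 1 coefficient per group over all 12 libraries. Clusters with an adjusted p under 0.05 were called; standard errors come from the F statistic. The fit was tested on simulated counts. Those varied less between libraries than these data and held no library set apart, so they do not show how the fit performs here. Lengths came from deposited counts and FPKM (at least 50 counts; 33315 clusters). Log2 CPM used a prior count of 2. Named were, of the calls in each direction, the 2 with the highest mean over both doses. The comparison, tests and lists were chosen with earlier results of these data known. Alternatives used DESeq2 1.42.0, limma 3.58.1, other scaling, filters, samples and the replicate number as a block. That number did not pair the samples. Python 3.11.15 was used.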

Additional observations from a re-analysis of the deposited data

Results flagged for a closer look

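The 2 mg/L libraries enter the fits through the estimate of spread but are compared with no group here. Some or all of them held signal above the controls in clusters described for the 2 higher doses. The 9 clusters high at 5 mg/L and low at 10 mg/L and in the controls summed to 7.90, 4054 and 2232.0 CPM in 2 mg/L replicates 1 to 3, against 8.83, 7.01 and 12.6 CPM in the controls. Replicate 1 of 2 mg/L was thus within the range of the controls. Without the most abundant of them the sums were 6.10, 128 and 100.2 CPM at 2 mg/L, against 5.96, 5.37 and 4.45 CPM in the controls. Cluster-27942.63967, 1 of the 9, averaged 7.66 ± 3.26 CPM (SD, n = 3) at 2 mg/L, against 3.38 ± 0.53 CPM (SD, n = 3) in the controls. All 3 libraries of 2 mg/L were above every control, replicate 1 only narrowly (4.12 CPM against 4.0 CPM in the highest control). The called cluster lettered A, absent at 10 mg/L, averaged 31.7 ± 6.45 CPM (SD, n = 3) at 2 mg/L, against 11.6 ± 5.60 CPM (SD, n = 3) in the controls, again without overlap.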

How the results depend on the processing

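The gap rule, its settings, thinning with at least 10 counts, and the patterns against controls without 10 mg/L replicate 3 were chosen after seeing the data; no cause was tested. Between the doses (6 calls) the numbers were 1640 by DESeq2, 55 by limma on log2(FPKM + 1), 3 by library size alone, 0 in the fits to the 6 libraries compared and to the 9 without 2 mg/L, and 0 to 199 with each library left out. Beside the 0 of the 6-library fit stood 2088 edgeR results with an unadjusted p under 0.05, and beside that of the 9-library fit 3869. At 10 mg/L against controls (4 calls) DESeq2 gave 2760 and left-out libraries 0 to 247. At 5 mg/L (0 calls) DESeq2 gave 840, its size factors in edgeR 2 and left-out libraries 0 to 7. The order of the doses by calls against controls turned in some settings. Limma on log2(FPKM + 1) gave 69 at 5 mg/L and 34 at 10 mg/L, and limma-voom 4 and 0, each of 57151 tested. Without 2 mg/L replicate 1 edgeR gave 7 at 5 mg/L and 0 at 10 mg/L, of 68494 tested. With the replicate number as a block all 3 comparisons had 0 calls, with 3460 edgeR results between the doses at an unadjusted p under 0.05. Same-numbered libraries of 10 mg/L, 5 mg/L and the controls deviated from their group means with correlations of -0.067 to 0.038. No pairing by number was seen in these groups, and the 2 mg/L libraries were not examined for it. The share without overlap, 12.2%, was 18.8% to 28.8% with a library left out, where smaller groups overlap less by construction. The 406 clusters absent at 1 dose were 814 at 5 counts, 194 at 20 counts and 875 to 1564 with a library left out. The difference in clusters detected (10 minus 5 mg/L), -9334, was 86 after thinning with at least 10 counts and -13048 to -4193 with a library left out. That in median SD, 0.134, ran from -0.266 to 0.415, since 2 libraries give smaller SDs than 3. The gap rule found 11 to 17 higher and 15 to 28 lower clusters at 16-fold to 4-fold gaps. All 4 named clusters kept their direction in every setting that tested them, which their lack of overlap between the doses made certain.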

Other observations

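One abundant cluster was high in every library of 10 mg/L and in 1 library each of 5 mg/L and the controls. The cluster ranked 68th, with an implied length of 3286 bases, had 3815, 4026 and 3300 CPM at 10 mg/L, 23.3, 2896 and 3.74 CPM at 5 mg/L, and 8.43, 4616 and 11.0 CPM in the controls. It passed the count of clusters without overlap between the doses (edgeR adjusted p = 0.984 for 10 against 5 mg/L), and 1 library of 5 mg/L and 1 control held it at the level of the high dose. The single most abundant cluster, about 993 bases long, held 0.890%, 1.75% and 2.52% of counts at 10 mg/L, against 5.32%, 1.96% and 3.26% at 5 mg/L and 4.55%, 5.25% and 1.45% in the controls, and the groups overlapped.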
